A study of Homo sapiens with 10 samples.

Results

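The genes described here are 10 transcription factor genes of the AP-1 and EGR families, namely FOS, FOSB, FOSL1, FOSL2, JUN, JUNB, JUND, EGR1, EGR2 and EGR3. They were taken by symbol, with all probe sets annotated to each, from the series' table of log2 signals. Of the 10 genes 9 were measured, by 12 probe sets, among 14884 named genes in all. No probe set carried the symbol EGR2 in the annotation used, and EGR2 was not analysed here. FOS, FOSB and EGR1 had a pair of probe sets each and the other 6 had a single one. Where in a gene each probe set lies is not given in the sources used here.

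MCF10A, the source of the RNA, is a spontaneously immortalised breast epithelial line of human origin that does not form tumours. The groups were the parental line, with intact H2A.X (5 arrays), and MCF10A cells in which the gene of the histone variant H2A.X was knocked out (5 arrays). Both groups were grown in DMEM/F12 with 5% horse serum, 20 ng/ml EGF, 500 ng/ml hydrocortisone, 100 ng/ml cholera toxin and 10 µg/ml insulin and harvested after 48 hours, and the labels name no further stimulus. The labels do not say whether the 5 samples of a group were separate cultures, or whether the knockout was a single clone, so the p-values reflect the spread among these samples alone and that spread may be technical.

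AP-1 is a dimer of basic leucine zipper proteins. FOS family proteins bind DNA mainly as partners of a JUN family protein, while JUN proteins can also pair among themselves. EGR proteins are zinc finger factors that bind GC-rich sites. FOS, FOSB, JUN, JUNB and the EGR genes are immediate early genes, whose transcription is raised within minutes by growth factors such as EGF without new protein synthesis, through serum response elements, cyclic AMP response elements and AP-1 sites in their own promoters. FOSL1 and FOSL2 are induced later and stay on longer in growing epithelial cells, and JUND is transcribed more steadily than JUN.

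The 10 array medians ran from 4.26 to 4.35 (log2), so a change common to all transcripts could not be seen. The targeted gene was not analysed here, so the labels alone define the groups. The epithelial keratin genes KRT5, KRT14 and KRT18 and the adhesion gene EPCAM had mean signals above 5.49, the median over all genes, in parental and in knockout cells, but their levels shifted. Of the 5 measured epithelial markers KRT14 (2.59) and KRT5 (0.78) rose, EPCAM (-2.14) and KRT18 (-0.94) fell, and KRT8 was at -0.35 and did not pass. Of 3 measured fibroblast markers DCN rose (2.06), with LUM at -0.09 and THY1 at 0.11, and the summed log2 signal of the 3 was 11.93 to 12.75 in parental and 14.20 to 14.67 in knockout arrays. Of 3 measured endothelial markers KDR rose (1.69), with PECAM1 at 0.09 and VWF at -0.04, and their sum was 11.50 to 12.07 and 13.05 to 13.95. Both measured immune cell markers, CD14 (-0.76) and CD68 (-0.37), fell, and their sum was 12.95 to 13.42 and 11.79 to 12.13. By their mean over all 10 arrays the 3 fibroblast markers were dimmer than that median, as were 2 of the 3 endothelial and 1 of the 2 immune cell markers, although DCN (4.06 to 6.11) and KDR (4.69 to 6.38) were above it in knockout cells. Whether these shifts had a part in the results was not tested.

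The promoters of the 4 members whose knockout and parental arrays did not overlap on the probe set used for the gene are shown for the regulatory letters that they hold. Each is given 5′ to 3′ along the gene, from 250 bases before the RefSeq start site to 20 bases after it (GRCh38.p14). They are chr5:138465229-138465498, plus strand, for EGR1, chr19:18281603-18281872, minus strand, for JUND, chr1:58784028-58784297, minus strand, for JUN, and chr2:28392608-28392877, plus strand, for FOSL2. Capitals mark exact matches, on either strand, to the motifs searched.
EGR1: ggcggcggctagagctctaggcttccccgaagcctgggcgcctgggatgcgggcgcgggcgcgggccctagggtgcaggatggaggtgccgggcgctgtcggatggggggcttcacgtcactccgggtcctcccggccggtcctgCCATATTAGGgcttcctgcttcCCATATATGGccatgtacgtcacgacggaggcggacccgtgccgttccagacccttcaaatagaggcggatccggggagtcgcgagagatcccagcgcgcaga
JUND: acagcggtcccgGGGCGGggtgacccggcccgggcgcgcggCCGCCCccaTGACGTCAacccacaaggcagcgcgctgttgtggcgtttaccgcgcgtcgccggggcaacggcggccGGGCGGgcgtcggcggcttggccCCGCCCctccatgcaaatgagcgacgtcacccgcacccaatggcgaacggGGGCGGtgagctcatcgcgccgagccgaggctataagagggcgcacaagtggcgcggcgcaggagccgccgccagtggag
JUN: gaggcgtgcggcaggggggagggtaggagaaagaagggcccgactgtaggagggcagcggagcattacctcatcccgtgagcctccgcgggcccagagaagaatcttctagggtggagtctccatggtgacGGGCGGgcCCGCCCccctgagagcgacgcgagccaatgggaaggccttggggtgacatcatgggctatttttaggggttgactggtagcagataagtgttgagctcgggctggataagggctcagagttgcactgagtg
FOSL2: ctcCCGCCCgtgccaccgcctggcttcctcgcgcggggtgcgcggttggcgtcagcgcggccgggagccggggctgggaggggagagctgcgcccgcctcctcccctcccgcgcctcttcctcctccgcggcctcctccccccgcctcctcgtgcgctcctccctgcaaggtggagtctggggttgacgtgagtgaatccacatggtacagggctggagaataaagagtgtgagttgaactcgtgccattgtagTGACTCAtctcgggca

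EGR1 held 2 serum response elements (CArG boxes, bound by SRF), which began 105 and 83 bases before the start. A CArG box was in 1.29% of 35116 RefSeq windows of 300 bases (250 before and 50 after a start). JUND held the cyclic AMP response element TGACGTCA, found in 1.85% of windows, 200 bases before the start. FOSL2 held the AP-1 site TGACTCA just after its start, and TGACTCA or TGAGTCA was in 4.95% of windows. The Sp1 letters GGGCGG, in 45.0% of windows, matched 6 times in the full JUND window, 2 times in JUN, 1 time in FOSL2 and 0 times in EGR1. The TATA letters TATAAA, in 11.5% of windows, were in FOS, FOSB and JUNB and not in the 4 promoters shown. The EGR sites GCGGGGGCG and GCGTGGGCG, in 5.77% of windows, matched in none of the members' windows. A CArG box was also in 1 of 3 windows of EGR2. The table had windows for 8 members, 7 of them measured, and none for FOSL1 and EGR3. A match is a description of letters and does not show that a factor bound there. Only exact letters within these windows were searched, so a missing match does not show that a gene lacks such an element.

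**Figure D1:**
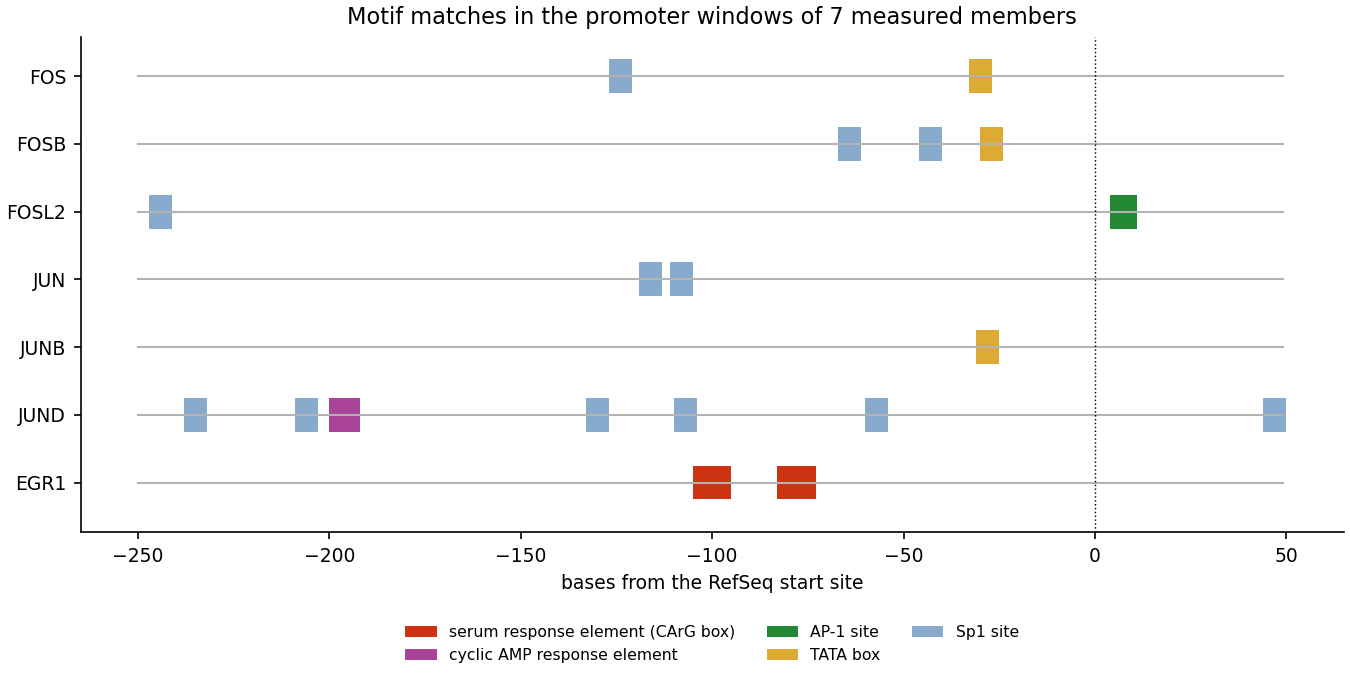
Motif matches on either strand in the promoter windows of the 7 measured members with a RefSeq window, by distance in bases from the start site (dotted line). Each bar is a match and grey lines are the windows. Of the 7, EGR1 alone shows exact matches to the CArG box within its window. JUND alone shows an exact match to the cyclic AMP response element, and FOSL2 alone to an AP-1 site.

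In knockout cells EGR1, JUND and JUN were lower, FOSL2 was higher and FOS was slightly higher, while FOSB, FOSL1, JUNB and EGR3 did not pass the test. So 5 of the 9 measured members were called (55.6%), against 34.3% of all 14884 genes. The 3 falls compare with 19.0% of all genes that fell, and the 2 rises with 15.3% that rose. The call is limma's moderated test with Benjamini-Hochberg adjustment over all genes, at an adjusted p under 0.05. Of the 12 probe sets 7 were called, against 33.2% of 16098 named probe sets. The median difference of the 9 members was -0.02 on the log2 scale, and that of all genes was 0.00. Differences are knockout minus parental throughout.

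**Figure D2:**
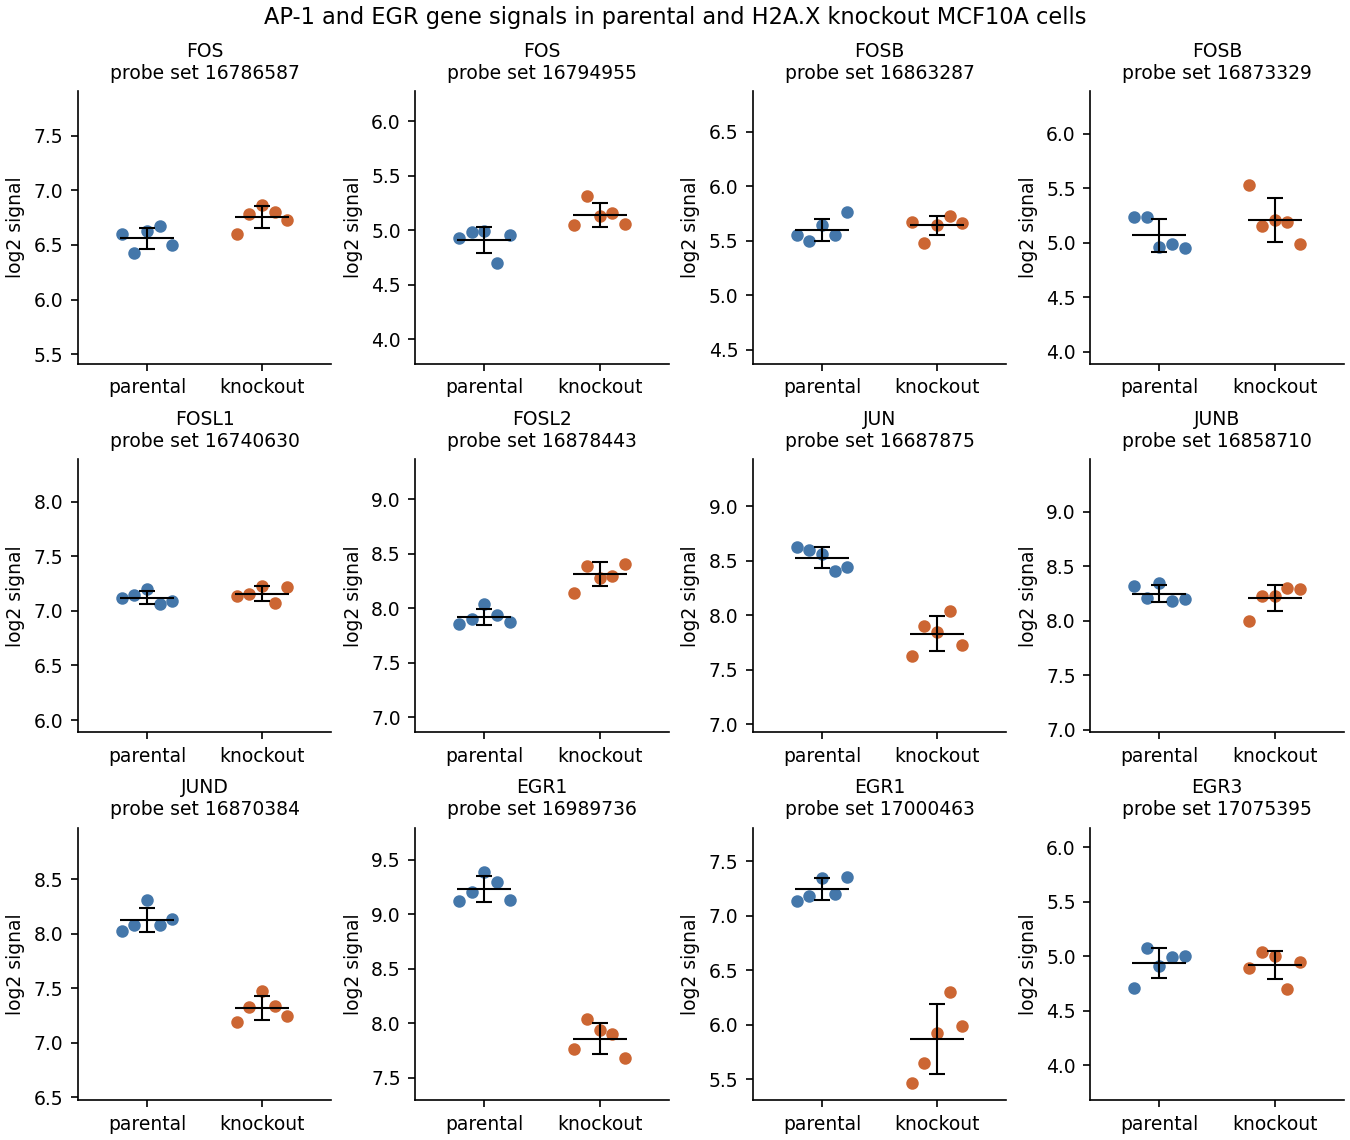
Log2 signal of the 12 probe sets of the AP-1 and EGR genes in each array, with parental arrays in blue and knockout arrays in orange. Bars are the mean ± SD of 5 arrays, and every panel spans the same log2 range. All knockout arrays lie below the parental arrays for both EGR1 probe sets, JUND and JUN, and above them for FOSL2 and for FOS probe set 16794955.

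EGR1, a zinc finger factor induced through ERK and SRF, was the member that differed most. On probe set 16989736 the log2 signal was 9.12, 9.20, 9.39, 9.30 and 9.13 in parental replicates 1 to 5. In knockout replicates 1 to 5 it was 7.76, 8.04, 7.94, 7.90 and 7.68. Every knockout array lay more than a full log2 unit below the lowest parental array. The mean fell from 9.23 ± 0.12 to 7.86 ± 0.14 (SD, n = 5 each), a difference of -1.36 ± 0.08 (SE, limma, adjusted p = 3.75e-08), or 2.57-fold lower in signal. It was the only measured member to differ at least 2-fold, as 2.81% of all genes did with a call, and its absolute difference ranked 164 of 14884.

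The other EGR1 probe set, 17000463, gave the same picture. It read 7.14, 7.18, 7.35, 7.20 and 7.36 in parental and 5.47, 5.65, 5.93, 6.30 and 5.99 in knockout replicates 1 to 5. The groups again did not overlap, and the knockout arrays were more spread (SD 0.32 against 0.10). The difference was -1.38 ± 0.13 (SE, limma, adjusted p = 2.73e-06 over 16098 named probe sets).

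EGR3, a related zinc finger factor, was dim in both groups. It ranged from 4.71 to 5.08 in parental arrays, with a median of 4.99, and from 4.70 to 5.04 in knockout arrays, with a median of 4.95. The difference was -0.02, with a 95% interval of -0.20 to 0.16 (limma, adjusted p = 0.875), and it took the opposite sign without knockout replicate 4 or parental replicate 2. Its mean was below 5.49, the median over all genes. Differences can be compressed at dim signals, which was not tested here, so the value does not show that EGR3 was unchanged. EGR4, the remaining family member, was also dim, at 5.12 and 5.21 (difference 0.09, 95% interval -0.10 to 0.28, adjusted p = 0.501).

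Among the JUN genes, the usual partners of FOS proteins, JUN and JUND fell and JUNB did not pass. JUND, the steadily transcribed member, read 8.03, 8.08, 8.31, 8.08 and 8.14 in parental replicates 1 to 5. It read 7.19, 7.33, 7.48, 7.34 and 7.25 in the knockout replicates. The groups did not overlap, and replicate 3 was the highest of each. The mean fell from 8.13 ± 0.11 to 7.32 ± 0.11 (SD, n = 5 each), by 0.81 on the log2 scale (SE 0.07, limma, adjusted p = 1.30e-06), or 1.75-fold.

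JUN, the most strongly activating member and the main target of JUN N-terminal kinases, read 8.63, 8.60, 8.56, 8.41 and 8.44 in parental replicates 1 to 5. The knockout replicates read 7.63, 7.90, 7.85, 8.04 and 7.73. No arrays of the groups overlapped, with knockout replicate 4 the highest of its group. The difference was -0.70 ± 0.08 (SE, limma, adjusted p = 1.62e-05), or 1.62-fold lower. Non-overlapping groups were seen for 4 of the 9 members, EGR1, JUND, JUN and FOSL2, and for 28.2% of all genes.

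JUNB, which often opposes JUN at shared sites, read 8.32, 8.21, 8.35, 8.18 and 8.20 in parental and 8.00, 8.23, 8.23, 8.30 and 8.29 in knockout replicates 1 to 5. The groups overlapped, and knockout replicate 1 stood alone below the rest. The difference was -0.04, with a 95% interval of -0.19 to 0.11 (limma, adjusted p = 0.697), and it was 0.01 without that array. That interval does not reach those of JUN (-0.87 to -0.52) or JUND (-0.96 to -0.66), although a difference between the genes was not itself tested.

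Of the 4 FOS family genes FOSL2 and FOS were called higher. FOSL2 encodes FRA-2, a FOS protein without the strong activation domain of FOS. It read 7.86, 7.90, 8.04, 7.94 and 7.87 in parental and 8.14, 8.39, 8.28, 8.30 and 8.41 in knockout replicates 1 to 5. Every knockout array was above every parental array, with knockout replicate 1 the closest. The difference was 0.38 ± 0.06 (SE, limma, adjusted p = 0.000383), or 1.30-fold.

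FOS itself, on probe set 16786587, read 6.60, 6.43, 6.63, 6.67 and 6.50 in parental and 6.60, 6.78, 6.87, 6.80 and 6.73 in knockout replicates 1 to 5. The groups overlapped only through knockout replicate 1, which lay among the parental arrays. The difference was 0.19 ± 0.07 (SE, limma, adjusted p = 0.0435). This call was close to the threshold. It ended with each array centred on its median (0.16, adjusted p = 0.125) and with 53617 probe sets tested together (adjusted p = 0.0992), and it also ended without 8 of the 10 arrays. The adjusted p was 0.0617, 0.112, 0.0509 and 0.0937 without parental replicate 1, 2, 3 or 5, and 0.0828, 0.103, 0.0873 and 0.0600 without knockout replicate 2, 3, 4 or 5.

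The dimmer FOS probe set, 16794955, read 4.93, 4.98, 4.99, 4.70 and 4.96 in parental and 5.05, 5.31, 5.13, 5.16 and 5.06 in knockout replicates 1 to 5. Here all knockout arrays were above the parental ones, and parental replicate 4 was the lowest. The difference was 0.23 ± 0.07 (SE, limma, adjusted p = 0.0291 over the named probe sets). This call too was close to the threshold and ended in 7 of 16 alternatives. They were quantile normalisation (0.19, adjusted p = 0.0637), median centring (0.20, adjusted p = 0.0655), an intensity trend (adjusted p = 0.0511), all 53617 probe sets tested together (adjusted p = 0.0685), and the data without parental replicate 4 (adjusted p = 0.0677) or knockout replicate 2 or 4 (adjusted p = 0.0746 and 0.0556).

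FOSL1, which encodes FRA-1, a FOS protein stabilised by ERK phosphorylation, differed by less than the spread. It ranged from 7.06 to 7.20 in parental and from 7.07 to 7.23 in knockout arrays, with medians of 7.12 and 7.16. The difference was 0.04, with a 95% interval of -0.08 to 0.16 (limma, adjusted p = 0.660). The brighter FOSB probe set, 16863287, ranged from 5.50 to 5.76 and from 5.48 to 5.73 (difference 0.04, interval -0.11 to 0.18, adjusted p = 0.742). The other FOSB probe set, 16873329, ranged from 4.95 to 5.24 and from 4.99 to 5.53 (difference 0.14, interval -0.08 to 0.35, adjusted p = 0.345 over the named probe sets). The FOSL2 rise (0.38) had a 95% interval of 0.24 to 0.52. The intervals of FOSL1 and of the brighter FOSB probe set do not reach it, while that of the other FOSB probe set overlaps it. A difference between these genes was not itself tested. The FOSB signals were close to or below 5.49, the median over all genes, and differences can be compressed at dim signals, which was not tested. These values therefore do not show that FOSB was unchanged.

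**Figure D3:**
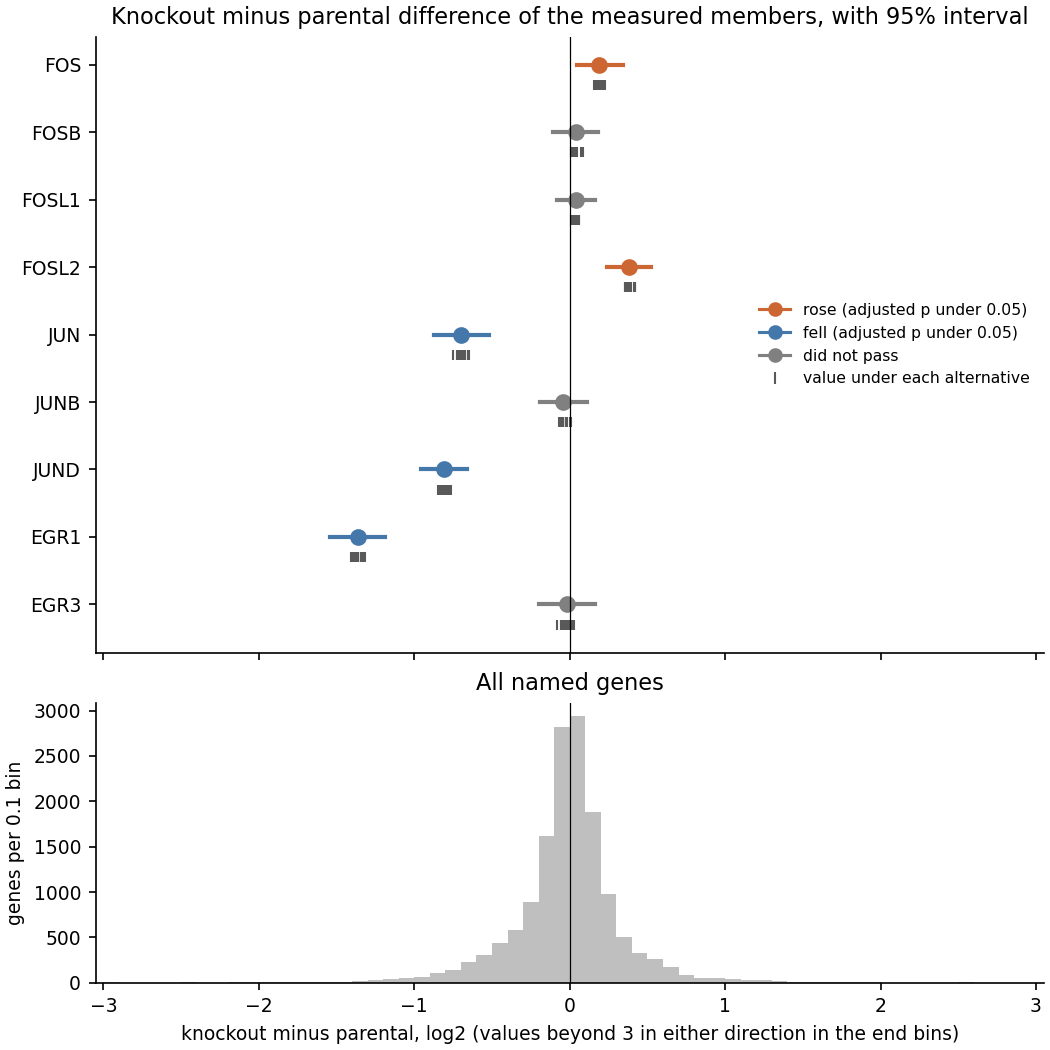
Top, knockout minus parental log2 difference of the 9 measured members (point) with its 95% interval from limma (line), and ticks below each for the alternative analyses. Bottom, the differences of all 14884 named genes as a histogram. EGR1 at -1.36 lies in the lower tail, while FOSB, FOSL1, JUNB and EGR3 lie within 0.05 of 0.

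Averaged over the members, the arrays of a group differed little, although deviations of single genes can cancel in such a mean. Over the 9 genes, 1 probe set each, the mean deviation of an array from its group mean ran from -0.04 to 0.08 in parental and from -0.11 to 0.06 in knockout arrays. Knockout replicate 1 was the lowest of its group for 5 of the 9 genes and the highest for 0. Parental replicate 3 was the highest of its group for 5 of the 9 and the lowest for 0. The falls of EGR1, JUND and JUN were -1.34, -0.78 and -0.65 without knockout replicate 1, and the FOSL2 rise was 0.42.

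The genes with profiles most like those of EGR1, JUND and JUN were found by the root mean square difference of log2 deviations from each gene's parental mean over the 10 arrays, among 7709 brighter genes. For EGR1 they were PFDN2 (0.0852), a prefoldin subunit gene, UBE4A (0.101) and SNX19 (0.112), which fell by 1.38, 1.28 and 1.30. For JUND they were LMO7 (0.0480), ZNF410 (0.0575) and the mitochondrial serine hydroxymethyltransferase gene SHMT2 (0.0658). For JUN they were CRB3 (0.0468), a polarity gene, ZNRD2 (0.0814) and U2AF1L4 (0.0827). The measure includes the difference between groups, so these are genes that fell by like amounts.

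The genes next to the 5 called members on the chromosomes had median differences of -0.17 to 0.19. Among the 5 measured genes on each side of EGR1, on chromosome 5, 1 rose and 3 fell with a median of -0.08, and the lowest was at -0.60. Around JUN, on chromosome 1, the median of the 10 neighbours was 0.05 (range -0.21 to 0.29), and the divergent transcript JUN-DT, named after its value was seen, was at 0.07 (adjusted p = 0.541) with a dim signal of 4.06 and 4.12. Around JUND, on chromosome 19, the median was 0.19, with 3 rises and 3 falls, the largest in GDF15 (-1.65), a stress cytokine gene also named after its value was seen. Around FOSL2, on chromosome 2, the median was 0.10 with 2 rises and 2 falls. Around FOS, on chromosome 14, it was -0.17, with 1 rise and 5 falls, in the opposite direction to FOS.

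Other immediate early genes moved in both directions, more of them downward. Of 26 listed genes 19 were measured, and 9 fell, 3 rose and 7 did not pass (63.2% called, against 34.3% of all genes), with a median of -0.15. ATF3, a stress-induced repressor of the same basic leucine zipper class that pairs with JUN proteins, fell from 5.94 ± 0.07 to 4.14 ± 0.25 (SD, n = 5 each, limma, adjusted p = 3.31e-08). CSRNP1 fell by 0.59 and DUSP1, a MAP kinase phosphatase gene, by 0.31. MYC rose by 0.77 (adjusted p = 2.44e-07) and the kinase gene SGK1 by 1.00 (adjusted p = 7.27e-06).

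Among genes for other basic leucine zipper partners, 5 of 11 were measured, and 40% were called, against 34.3% of all genes. MAFG (-0.31) and JDP2 (-0.25), a JUN-binding repressor, fell, 0 rose and 3 did not pass. Of the transcription factors that act on the members' promoters, 9 of 13 were measured, and 6 fell, 0 rose and 3 did not pass. The median was -0.36 and 66.7% were called, against 34.3% of all genes, of which 19.0% fell and 15.3% rose. CREM (-0.84), MEF2A (-0.66), the coactivator gene CREBBP (-0.64) and CREB1 (-0.46), whose product binds the cyclic AMP response element, fell. SRF, whose product binds the CArG box, was at 8.13 and 8.10, a difference of -0.03 (95% interval -0.16 to 0.10, adjusted p = 0.737) that had the opposite sign under quantile normalisation. CREB1 and CREM act in the cyclic AMP branch, which cholera toxin in the medium stimulates.

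Of the ERK, JNK and p38 cascade genes, 14 of 26 were measured, and 3 rose, 3 fell and 8 did not pass. With a median of -0.03, 42.9% were called, against 34.3% of all genes. The falls were SOS2 (-0.76), an exchange factor for RAS, MAPK9 (-0.68), which encodes JNK2, and MAP2K1 (-0.62), which encodes the ERK kinase MEK1. MAP2K3, an activator of p38, rose by 0.51. MAPK3, which encodes ERK1, was at 0.01 (95% interval -0.11 to 0.14, adjusted p = 0.909), with the opposite sign under median centring and without knockout replicate 4. EGFR, which binds that EGF, was added after its value was seen and rose from 10.41 ± 0.03 to 11.10 ± 0.06 (SD, n = 5 each, limma, adjusted p = 2.78e-07).

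All 9 measured ERK feedback genes of 14 listed were called (100%, against 34.3% of all genes), 6 upward and 3 downward. Their median was 0.24, and 6 to 9 of them were called under the alternatives. The phosphatase gene DUSP4 (0.61) and ERRFI1 (0.42), an inhibitor of EGFR, rose, while the ETS factor gene ETV5 (-0.69) and SPRY4 (-0.34) fell. Of 10 listed genes of the turnover of FOS and JUN products 3 were measured, and 33.3% were called, against 34.3% of all genes. DET1 (-0.28), part of a ubiquitin ligase for JUN, fell and the others did not pass.

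Genes known as targets of these factors moved in both directions. Of 7 measured EGR corepressor and target genes, of 10 listed, 2 rose, 2 fell and 3 did not pass, with a median of 0.04. The share called was 57.1%, against 34.3% of all genes. PDGFA, a target of EGR1, fell by 0.63, while the matrix glycoprotein gene THBS1 rose from 8.59 ± 0.08 to 10.98 ± 0.06 (SD, n = 5 each, limma, adjusted p = 3.82e-11). The corepressor genes went apart, with NAB1 higher by 0.41 (adjusted p = 0.000194) and NAB2, itself induced by EGR1, lower by 0.29 (adjusted p = 0.0252). The NAB2 call ended without parental replicate 3 (adjusted p = 0.0509) or parental replicate 4 (adjusted p = 0.0653), and with all 53617 probe sets tested together (adjusted p = 0.0633).

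Of 12 measured AP-1 targets of epithelia, of 21 listed, 3 rose, 4 fell and 5 did not pass, with a median of 0.02. The share called was 58.3%, against 34.3% of all genes. By their mean over all 10 arrays 6 of the 12 were below 5.49, the median over all genes. Whether differences were compressed at such signals was not tested. VEGFA (-2.08, adjusted p = 7.23e-10) and the EGFR ligand gene HBEGF (-1.66, adjusted p = 1.32e-08) fell the most. The cyclin gene CCND1 (1.25, adjusted p = 3.31e-09) and the chemokine gene CXCL8 (0.73, adjusted p = 5.19e-05) rose.

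Heat shock genes, like immediate early genes, can respond to handling of cells. Of 6 measured, of 10 listed, 4 rose, 0 fell and 2 did not pass, with a median of 0.52. So 66.7% were called, against 34.3% of all genes, of which 15.3% rose and 19.0% fell. The rises were HSPB1 (0.64), HSPA1A (0.63), HSPA1B (0.61) and HSPH1 (0.43). HSPA1A and HSPA1B are almost the same in sequence, so a probe set of either may detect both. Whether a difference in handling had a part in the values of the AP-1 and EGR genes was not tested.

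**Figure D4:**
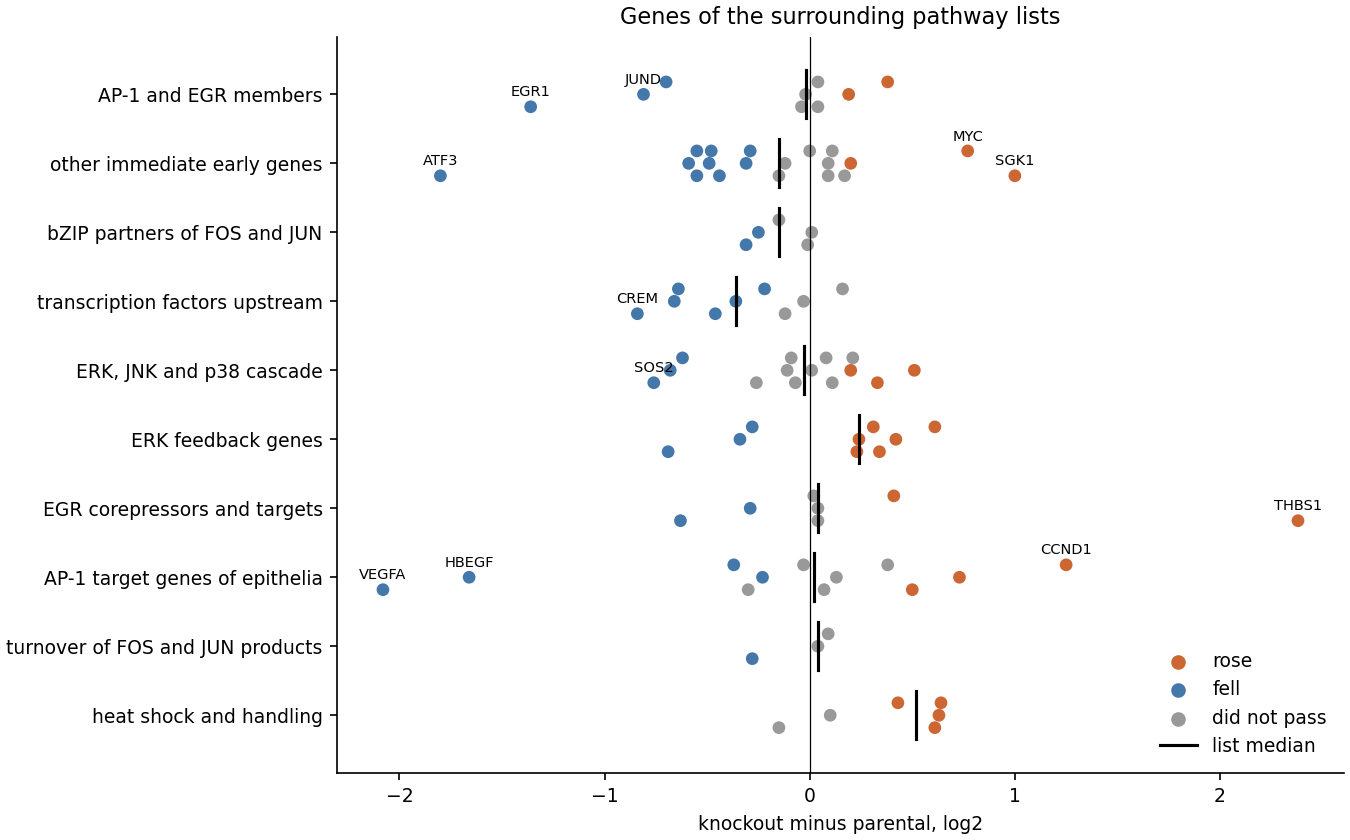
Knockout minus parental log2 difference of every measured gene in the 10 gene lists, 1 point a gene, with orange for genes that rose, blue for genes that fell and grey for those that did not pass, and a black line at each list's median. Names are given for differences of at least 0.75 in size. EGR1 at -1.36 and ATF3 at -1.80 are the lowest of their lists, and the 6 heat shock genes have a median of 0.52.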

How the data were processed

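The authors deposited a table of summarised, normalised log2 signals with a row per probe set and a column per array. Affymetrix Expression Console and Partek 6.6 are named in the submitters' processing notes, while how they summarised, normalised or filtered is not given in the sources used here. That the scale is log2 was inferred from the range of the values (1.13 to 13.87). Of 53617 probe sets 16098 had a single gene symbol in the platform annotation, all updated by Entrez identifier through the RefSeq table of GRCh38.p14. The probe set with the highest mean stood for each of 14884 genes.

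Groups were compared in R 4.3.3 with limma 3.58.1 (lmFit, then eBayes), with no covariate or filter, and adjusted p under 0.05 was called. For arrays, precision is limited by their number, 5 against 5. On simulated data with 14884 genes, of which 200 were changed, the procedure found 77% of changes of 0.5 and 100% of changes of 1 (log2), with 10 false calls. In the data 34.3% of genes were called, a far larger share, so these values do not give the power or false calls of this comparison. All p-values are two-sided. The members and lists were chosen with earlier results of these data known, and no list was tested as a set.

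Named were all members, up to 4 genes per list that passed with groups not overlapping, ranked by absolute difference, NAB1, NAB2, MAPK3, SRF, MYC, DUSP1 and EGR4 whatever their values, and the 3 genes most like each of the 3 members with the largest called differences. Marker genes are named to describe the groups. Sequences are RefSeq promoter windows of GRCh38.p14, searched with Python 3.11.15. Alternatives were quantile normalisation, median centring, no dim genes, an intensity trend, probe set means, all probe sets of the table, array weights, the replicate number as a block and each array left out.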

Additional observations from a re-analysis of the deposited data

Results flagged for a closer look

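Within-group spread was examined for the probe sets of the members and of the other genes named from the lists. It was also examined for the genes most like EGR1, JUND and JUN. That gave 136 groups of 5 arrays, and a single array stood far from the other 4 in 4 of them. Chance alone gives about 1 in 20 such groups. Among members, JUNB was at 8.00 in knockout replicate 1, with the nearest other knockout array at 8.23, and the dimmer FOS probe set, 16794955, was at 4.70 in parental replicate 4, with the nearest at 4.93. NAB2 was at 5.92 in knockout replicate 1, with the nearest at 6.24. CREM was at 5.79 in parental replicate 2, with the nearest at 5.67.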

How the results depend on the processing

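Over 18 alternatives EGR1 stayed called at -1.41 to -1.32, JUND at -0.85 to -0.76, JUN at -0.75 to -0.65 and FOSL2 at 0.36 to 0.42. FOS ran from 0.16 to 0.23 and lost its call in 11 of the 18, those given above and the replicate block. With an array left out the members called ran from 4 to 5, the member probe sets called from 5 to 7 and all genes called from 4705 to 5128. Testing all probe sets of the table together called 9112 of 53617. The count was higher because more features were tested, 37519 of them without a gene symbol. The share called was lower than the 34.3% of named genes. Among the members and other named genes, signs changed for values near 0 that did not pass: EGR3 (-0.08 to 0.03 with an array left out, and 0.01 without parental replicate 2), JUNB (-0.06 to 0.01), MAPK3 (-0.02 to 0.05, and -0.02 under median centring) and SRF (0.0034 under quantile normalisation), the causes of which were not tested. EGR3 could not be tested among the brighter genes. Replicate numbers are shared by the groups, but the deviations of same-numbered samples correlated at -0.01 to 0.20 over genes, and 2 of 5 parental arrays correlated best with their own number, so the numbers were not taken as pairs. With the replicate block 4972 genes were called, against 5108, and FOS was at 0.19 (adjusted p = 0.0567), while the calls of the other members were as without it. Dim signals, as those of EGR3 and the dimmer FOS and FOSB probe sets, limit what the arrays can show.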
